A study of Homo sapiens with 6 samples.

Results

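The E2F transcription factors and the retinoblastoma pocket proteins govern entry into DNA replication, and 10 of their genes were described here: E2F1 to E2F8, RB1 and RBL1. They were found by gene symbol from the human Ensembl identifiers, 10 of the 16574 genes in the files, and all 10 passed the filter on low values. Transcripts were measured by RNA sequencing in Nthy-ori 3-1 cells, a thyroid follicular epithelial line immortalised with SV40 large T antigen and labelled WT. One group of cells had been kept for 27 days in 2.5 µM BDE209 (decabromodiphenyl ether, a brominated flame retardant), and the control cells as long in the same volume of the solvent DMSO, with 3 libraries in each of the 2 groups. All 6 libraries came from this 1 line, and the labels do not say that libraries of a group were separate cultures. What a p-value measures here is then the scatter among these libraries, part or all of which may be technical.

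E2F factors bind promoters of replication genes. E2F1, E2F2 and E2F3 mostly activate them, E2F4 and E2F5 mostly repress them while bound to a pocket protein, E2F6 represses with polycomb proteins, and E2F7 and E2F8 repress without pocket proteins or the usual DP partner. RB1, RBL1 (p107) and RBL2 (p130) are the pocket proteins, which hold E2F factors until cyclin-dependent kinases phosphorylate them. Large T antigen binds the same pocket and frees E2F, so in lines immortalised with it pocket protein control is bypassed at the protein level, a step that transcript levels do not show.

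Several E2F and pocket protein genes carry E2F binding words in their own promoters, and those with a word just upstream of the start are shown. The windows come from RefSeq (GRCh38.p14), which held 9 windows of 300 bases for 8 of the 10 genes, with no entry for E2F5 or E2F8. The search covered 4 words of 7 letters on both strands, the classical site core TTGGCGC with its relatives TTCGCGC, then TTCCCGC and finally TTGCCGC. No word contains another. Each line gives the 150 bases before the start on the strand of the gene, with matched words in capitals.
E2F1, chr20:33686386-33686535, minus strand: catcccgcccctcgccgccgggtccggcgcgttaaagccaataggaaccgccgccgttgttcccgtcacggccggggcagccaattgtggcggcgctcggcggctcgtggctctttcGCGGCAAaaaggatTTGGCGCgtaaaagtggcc
E2F2, chr1:23531234-23531383, minus strand: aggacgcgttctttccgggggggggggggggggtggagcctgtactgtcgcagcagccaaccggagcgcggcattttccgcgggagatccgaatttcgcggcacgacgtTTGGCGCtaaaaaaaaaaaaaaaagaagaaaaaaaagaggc
E2F3, first start, chr6:20401729-20401878, plus strand: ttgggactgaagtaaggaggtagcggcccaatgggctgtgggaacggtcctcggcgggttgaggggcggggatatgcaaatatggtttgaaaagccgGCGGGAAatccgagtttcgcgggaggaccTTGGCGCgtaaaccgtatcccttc
E2F7, chr12:77065570-77065719, minus strand: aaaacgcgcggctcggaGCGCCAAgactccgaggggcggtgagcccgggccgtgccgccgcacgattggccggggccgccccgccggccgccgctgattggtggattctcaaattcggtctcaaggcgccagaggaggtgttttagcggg
RBL1, chr20:37095998-37096147, minus strand: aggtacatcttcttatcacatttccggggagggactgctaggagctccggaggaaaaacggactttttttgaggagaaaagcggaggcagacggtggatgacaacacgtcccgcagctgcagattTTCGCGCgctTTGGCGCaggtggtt

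The E2F1, E2F3 and RBL1 windows each held 2 words within the bases shown, and E2F2 held 1. E2F7 held 2 words in its window, of which 1 lies further upstream than the bases shown. E2F6 held 1 word, 14 bases after its start, and is not shown. The E2F4 window and the second E2F3 start held none of these words. The RB1 window also held none, but it belongs to a start 172724 bases inside the gene and says nothing of the main promoter. Of all 35116 windows in the table, 13% held at least 1 word, and 19.5% of the 13557 windows of genes tested here did. A list of 50 known E2F target genes of the G1/S step had 61 windows, of which 63.9% held a word. A list of 13 G2/M genes controlled by the MuvB complex had 12 windows, of which 25.0% held one. These matches describe letters, not binding in these cells.

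Epithelial markers were mixed and follicular ones mostly near 0. Of 5 epithelial markers, KRT18 read 36.19 to 55.92 FPKM (fragments per kilobase of transcript of each library's total, so comparable between genes within a library), KRT8 5.7 to 9.0 and EPCAM 1.06 to 1.21, while KRT19 read at most 0.08 and the E-cadherin gene CDH1 at most 0.25. All 6 mesenchymal markers were present, and their sum ran from 8975.45 to 12013.02 FPKM in BDE209 and from 9714.44 to 14313.12 FPKM in DMSO libraries. Of these, the proteoglycan gene LUM read 23.38, 11.09 and 21.96 FPKM in BDE209 and 8.0, 8.21 and 7.26 in DMSO replicates 1, 2 and 3, and DCN read 31.15, 19.68 and 27.61 in BDE209 and 13.35, 17.47 and 12.94 in DMSO replicates 1, 2 and 3. Both lay wholly higher in BDE209, while the filament gene VIM lay wholly lower and the fibronectin gene FN1 was lower in all pairs. None of these passed the test over 6 libraries given below, and in replicates 1 and 3 alone LUM (difference 1.46, adjusted p in limma 0.000326), DCN (1.1, 0.000987) and FN1 (-0.53, 0.00839) did. Of 9 follicular markers, 2 averaged at least 1 FPKM, HHEX and FOXE1, and the 9 summed to between 7.26 and 9.65 FPKM in BDE209 libraries and between 6.45 and 8.49 in DMSO libraries. TG, the thyroglobulin gene, read at most 0.12 FPKM, the sodium iodide symporter gene SLC5A5 at most 0.03, and the leukocyte gene PTPRC at most 0.02, while CD68, a lysosomal gene of macrophages and other cells, read 48.18 to 73.63. The 3 endothelial markers summed to between 0.5 and 0.55 FPKM in BDE209 and between 0.33 and 0.4 FPKM in DMSO libraries, near 0. The part of these marker differences in the results was not tested. The deposited FPKM summed to 829739 in BDE209 replicate 2 and 819086 in DMSO replicate 2, and to between 567810 and 596725 in the other 4 libraries. Both libraries numbered 2 stood apart: ribosomal protein genes took 30.5% of the sum in BDE209 replicate 2 and 29.9% in DMSO replicate 2, against 17.5% to 20% in the other 4 libraries. Fragment totals are not given. From the spacing of the lowest values of short genes, 1 fragment was worth roughly 0.011 to 0.017 FPKM for the longest of the 10 transcripts and 0.025 to 0.038 FPKM for the shortest, far under their levels.

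All 10 genes were expressed in all 6 libraries, and E2F4 stood highest. Over the 6 libraries mean levels were 49.0 FPKM for E2F4, 28.1 for E2F1, 23.6 for E2F7, 12.8 for RB1, 10.1 for RBL1, 7.71 for E2F6, 6.75 for E2F3, 4.42 for E2F5, 4.06 for E2F8 and 2.1 for E2F2. The median gene tested averaged 11.9 FPKM, and 4 of the 10 were above it. E2F4 exceeded E2F1 in 6 of 6 libraries, E2F7 exceeded RB1 in 6, RB1 exceeded RBL1 in 6, E2F3 exceeded E2F5 in 6 and E2F8 exceeded E2F2 in 6. The other neighbours changed places: E2F1 was above E2F7 in 3 of 6 libraries, RBL1 above E2F6 in 4, E2F6 above E2F3 in 3, and E2F5 above E2F8 in 3.

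**Figure D1:**
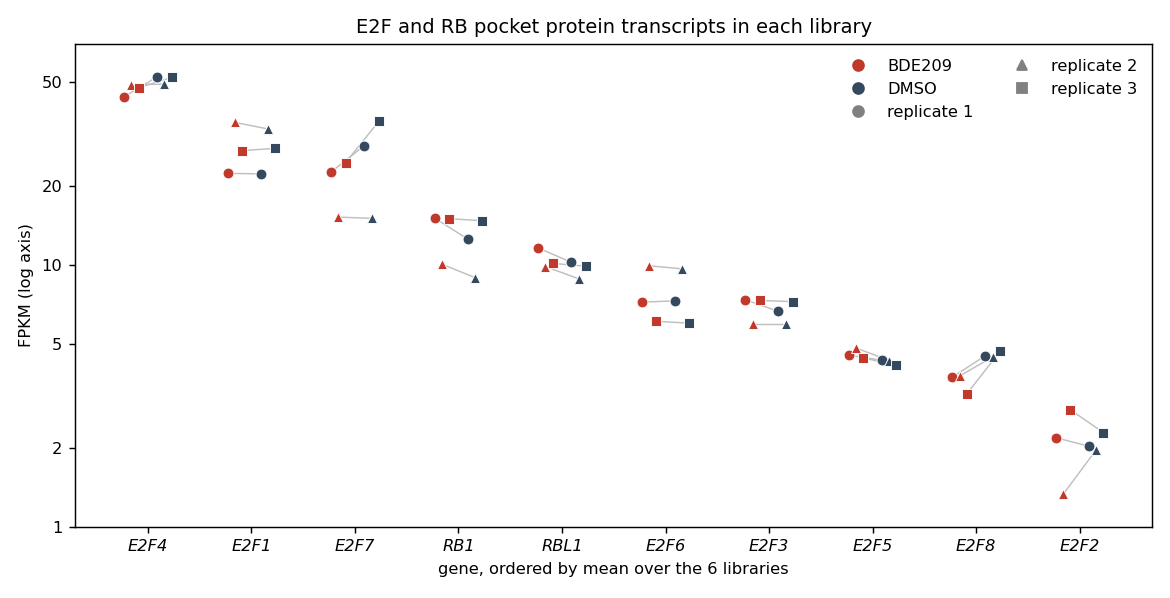
Level of each of the 10 genes in FPKM on a log axis, 1 point per library, BDE209 left of DMSO, with replicate 2 marked apart. E2F4 lies highest, near 49.0 FPKM, and E2F2 lowest, near 2.1 FPKM; the spread within a group is mostly wider than the gap between the groups.

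In BDE209 libraries E2F4 made up 38.7% ± 0.3 of the summed FPKM of the 8 E2F genes, against 39.3% ± 1.85 in DMSO libraries (SD, n = 3 each). The 3 activators E2F1, E2F2 and E2F3 made up 30.8% ± 2.96 in BDE209 and 28.0% ± 4.61 in DMSO libraries. The atypical pair E2F7 and E2F8 took 23.2%, 15.2% and 22.6% in BDE209 replicates 1, 2 and 3, and 25.9%, 15.8% and 28.7% in DMSO replicates 1, 2 and 3. Their share was thus lower in BDE209 within each number, and lowest in replicate 2 of both groups. E2F6 took 6.4% ± 1.51 in BDE209 and 5.9% ± 1.78 in DMSO libraries. The 8 genes together summed to 120.9 ± 5.95 FPKM in BDE209 and 130.6 ± 8.29 FPKM in DMSO libraries, and these sums overlapped.

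Whether BDE209 alters these genes was tested with limma on log2(FPKM + 1) over all 11223 genes that passed the filter, and differences below are BDE209 minus DMSO on that scale. The threshold was an adjusted p (Benjamini-Hochberg) under 0.05. None of the 10 genes passed, as 0.0% of all genes tested did, while 176 genes, or 1.57%, had an unadjusted p under 0.05, among the 10 only E2F8. A fit that added the replicate number as a block, so that BDE209 was compared with DMSO within each number, also called 0.0% of genes and none of the 10. There 16.5% of genes had an unadjusted p under 0.05 and 6.73% did with a lower level, among them E2F7 and E2F8. In bulk RNA, fewer cells of a type and less RNA per cell cannot be told apart. The libraries did not overlap between groups for 3 of the 10 genes, against 5.22% of all genes tested: E2F4 and E2F8 lay wholly lower in BDE209, as did 2.0% of all genes, and E2F5 wholly higher, as did 3.22%. These and all other statements here that groups lie apart refer to the deposited FPKM. With each library brought to the same FPKM sum the groups overlap for all 3 genes, since the number 2 libraries have the highest sums. E2F4 and E2F8 were lower in all 3 same-numbered pairs, as were 17.3% of all genes, and E2F5, RB1 and RBL1 were higher in all 3, as were 21.9%.

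**Figure D2:**
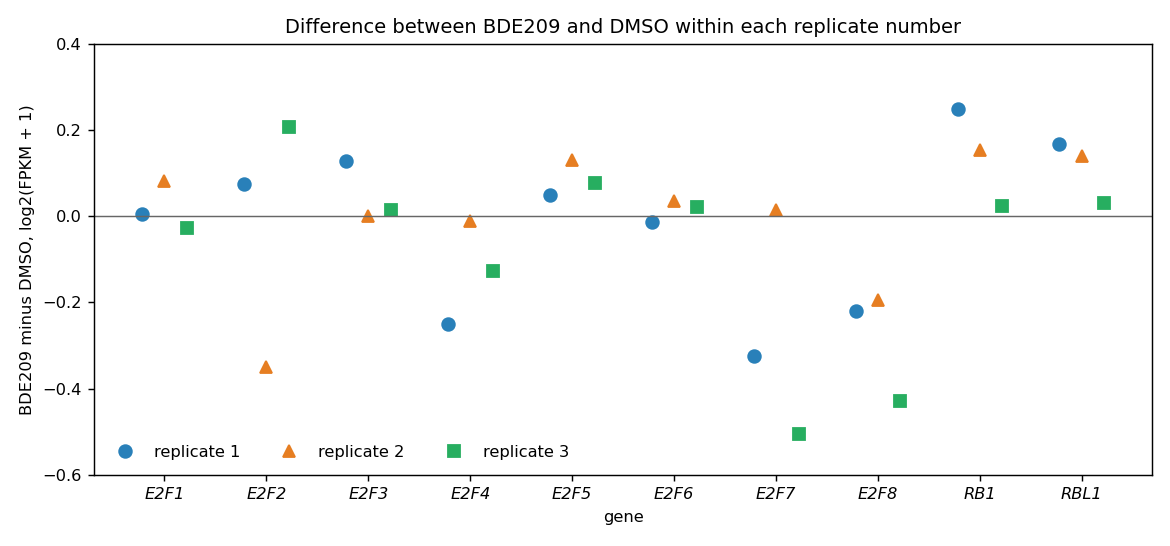
Difference of BDE209 minus DMSO within each replicate number, in log2(FPKM + 1), for the 10 genes; each point is 1 pair, and a line at 0 marks no difference. E2F4 and E2F8 lie below 0 and E2F5, RB1 and RBL1 above 0 in all 3 pairs, and E2F7 lies at -0.32 and -0.51 in pairs 1 and 3 and at 0.02 in pair 2.

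The activators did not separate the groups. E2F1, which drives replication genes and can also induce cell death genes, read 22.42, 35.12 and 27.39 FPKM in BDE209 replicates 1, 2 and 3, and 22.32, 33.13 and 27.94 FPKM in DMSO replicates 1, 2 and 3. Each pair nearly coincided and replicate 2 was highest in both groups. Its difference was 0.02 (SE 0.22, 95% interval -0.5 to 0.54; -0.11 to 0.15 with the replicate block).
E2F2, an activator close to E2F1 in function, read 2.19, 1.33 and 2.8 FPKM in BDE209 and 2.03, 1.97 and 2.29 FPKM in DMSO replicates 1, 2 and 3. BDE209 was above DMSO in pairs 1 and 3 and below it in pair 2, and the ranges overlapped. Its difference was -0.02 (SE 0.2, interval -0.5 to 0.46), and 0.14 over replicates 1 and 3 alone. E2F3, which gives rise to an activating and a shorter product from separate starts, read 7.37, 5.95 and 7.33 FPKM in BDE209 and 6.66, 5.95 and 7.25 FPKM in DMSO replicates 1, 2 and 3. Replicate 2 was lowest and equal in both groups, and the difference was 0.05 (SE 0.14, interval -0.28 to 0.37). The files give 1 value per gene, so the products of the 2 E2F3 starts were not told apart.

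E2F4, the E2F that binds all 3 pocket proteins and the partner of RBL1 and RBL2 in quiescent cells, read 43.93, 48.84 and 47.65 FPKM in BDE209 replicates 1, 2 and 3, and 52.43, 49.22 and 52.14 FPKM in DMSO replicates 1, 2 and 3. All 3 BDE209 libraries were below all 3 DMSO libraries, with a gap of under 1 FPKM in replicate 2. BDE209 libraries averaged 46.8 ± 2.56 FPKM and DMSO libraries 51.3 ± 1.78 FPKM (SD, n = 3 each), a ratio of 0.913. The difference was -0.13 (SE 0.12, interval -0.42 to 0.16), with an adjusted p in limma of 1.00 and, with the block, of 0.36.
E2F5, its closest relative, read 4.52, 4.82 and 4.42 FPKM in BDE209 and 4.33, 4.32 and 4.14 FPKM in DMSO replicates 1, 2 and 3. Here all BDE209 libraries were above all DMSO libraries, by a ratio of means of 1.08. The difference was 0.09 (SE 0.11, interval -0.18 to 0.35; adjusted p in limma 0.554 with the block). E2F5 overlaps 2 antisense genes in GENCODE v29 and strand use is not given in the sources used here, so reads of both strands may be merged. Within the E2F4 and E2F5 pair the genes thus lay on opposite sides, and neither passed the test.

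E2F6, which lacks the pocket protein binding region and acts with polycomb proteins, read 7.22, 9.94 and 6.1 FPKM in BDE209 and 7.3, 9.68 and 6.0 FPKM in DMSO replicates 1, 2 and 3. As with E2F1, the pairs nearly coincided and replicate 2 was highest, with a difference of 0.01 (SE 0.23, interval -0.53 to 0.56; -0.13 to 0.16 with the block). Named pseudogenes exist for E2F6 (4), E2F3 (2) and E2F4 (1) in GENCODE v29, and how reads shared with them were counted is not given in the sources used here.

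The atypical repressors gave the lowest ratios among the 10. E2F7, which shuts off E2F1 and replication genes late in S phase, read 22.69, 15.26 and 24.66 FPKM in BDE209 replicates 1, 2 and 3, and 28.64, 15.09 and 35.42 FPKM in DMSO replicates 1, 2 and 3. BDE209 was lower in pairs 1 and 3, by ratios of 0.792 and 0.696, and level with DMSO in pair 2, at 1.01. Over the 6 libraries the difference was -0.27 (SE 0.34, interval -1.09 to 0.55; adjusted p in limma 1.00 without and 0.286 with the block). Over replicates 1 and 3 alone it was -0.41 (SE 0.11, adjusted p in limma 0.0781 without and 4.3e-05 with the block). With the block in those 4 libraries the p-value rests mostly on spread that limma shares over genes. The effect in number 2 exceeded that in numbers 1 and 3 by 0.43 (SE 0.11, interval 0.19 to 0.67, adjusted p in limma 0.0269), where 10.3% of all genes were called, 5.27% in that direction. That call rests on 1 library per group with number 2, and its p-value mostly on the spread shared over genes. It was lost under 4 of the alternative settings given in the closing part.
E2F8, which pairs with E2F7, read 3.73, 3.77 and 3.22 FPKM in BDE209 and 4.51, 4.46 and 4.68 FPKM in DMSO replicates 1, 2 and 3. The groups did not overlap and all 3 pairs were lower, number 2 included. BDE209 libraries averaged 3.57 ± 0.307 FPKM and DMSO libraries 4.55 ± 0.115 FPKM (SD, n = 3 each), a ratio of 0.785. The difference was -0.28 (SE 0.12, interval -0.56 to -0.0033), with an unadjusted p in limma of 0.048, and a limma value after adjustment of 1.00 (0.23 under the block fit). An unadjusted p under 0.05 with a lower level in BDE209 was found for 0.446% of all genes. E2F8 also overlaps an antisense gene.

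The pocket protein genes were slightly higher in BDE209 in all pairs and passed no test. RB1, the retinoblastoma gene, read 15.12, 10.08 and 15.04 FPKM in BDE209 replicates 1, 2 and 3, and 12.57, 8.96 and 14.78 FPKM in DMSO replicates 1, 2 and 3. Replicate 2 was lowest in both groups and the ranges overlapped. The difference was 0.14 (SE 0.23, interval -0.42 to 0.7; adjusted p in limma 0.347 with the block). RBL1, which is itself an E2F target and binds E2F4 in cycling cells, read 11.63, 9.87 and 10.15 FPKM in BDE209 and 10.25, 8.87 and 9.91 FPKM in DMSO replicates 1, 2 and 3. Its within-number ratios were 1.13, 1.11 and 1.02, the ranges overlapped, and the difference was 0.11 (SE 0.12, interval -0.18 to 0.4; adjusted p 0.399 with the block). RBL2, the third pocket protein gene, averaged 16.4 ± 4.52 FPKM in BDE209 and 14.4 ± 3.61 FPKM in DMSO libraries (SD, n = 3 each), with pair differences of 0.25, 0.12 and 0.13. RBL1 also overlaps an antisense gene.

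With replicate 2 left out, 6.68% of 11101 genes were called in limma without a block and none of the 10 was. With the number as a block in those 4 libraries 28.7% of genes were called, and 3 of the 10 passed, all lower in BDE209, a direction in which 14.3% of genes were called. These were E2F4 (adjusted p 0.0102), E2F7 (4.3e-05) and E2F8 (0.0121). With 4 libraries this fit leaves each gene little information on its own spread. Its p-values therefore rest mostly on the spread that limma shares over genes. None of the 3 passed with all 6 libraries.

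For 7 of the 10 genes the number 2 libraries stood further from the other 4 than BDE209 stood from DMSO. The share of all genes for which this holds was not counted. The number 2 libraries also had the highest FPKM sums (829739 and 819086, against 567810 to 596725). Bringing each library to the same sum would lower the number 2 values against the other 4. The positions and shifts given here are therefore those of the deposited FPKM scale. Both number 2 libraries were above the other 4 for 2 genes, E2F1 (by 0.44) and E2F6 (by 0.5), as for 29.8% of all genes tested, and below them for 5, among them E2F7 (-0.82), RB1 (-0.55) and E2F2 (-0.33), as for 42.6%. E2F4, E2F5 and E2F8 overlapped, and these were the 3 genes whose treatment groups did not. That match is partly fixed in advance: where the groups do not overlap, both number 2 libraries cannot lie beyond the other 4. Over all genes the shift followed transcript length, with medians of 0.33, -0.02, -0.2 and -0.39 in 4 equal groups of genes from the shortest (217 to 2389 nucleotides) to the longest (5395 to 34526). E2F1 (2503 nucleotides), E2F4 (2615), E2F6 (3450) and E2F8 (3519) fall in the second group, whose median was -0.02. Their shifts were 0.44, 0.0, 0.5 and 0.03. E2F2, E2F3, E2F5 and RB1 fall in the third group (median -0.2), with shifts of -0.33, -0.23, 0.06 and -0.55. E2F7 (5740 nucleotides) and RBL1 (5684) fall in the longest group. The E2F7 shift lies beyond the median of that group, and the RBL1 shift (-0.15) short of it. The part of length or of RNA quality in the levels was not tested.

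**Figure D3:**
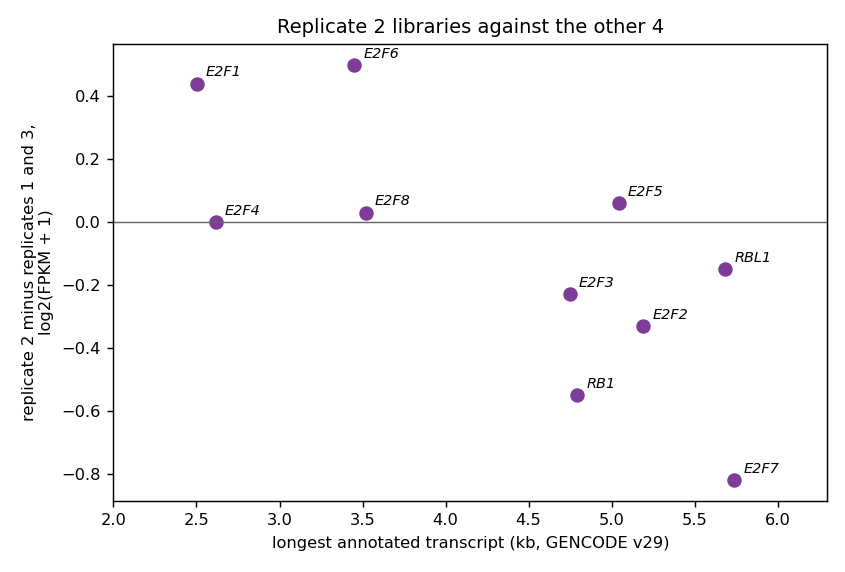
Shift of the number 2 libraries from the other 4, in log2(FPKM + 1), against the longest annotated transcript in kilobases, for the 10 genes. E2F1 and E2F6 lie highest, E2F7 lowest at -0.82 and E2F4 at 0.0.

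The partners and regulators of these factors were described from lists, with 0 members called over the 6 libraries with or without the block in any of them. Counts of list genes higher or lower in all pairs, here and below, stand against 21.9% higher and 17.3% lower among all genes tested. The DP partners, which most E2F factors need to bind DNA, read 37.0 ± 0.661 FPKM in BDE209 and 39.6 ± 3.64 in DMSO libraries for TFDP1, and 7.39 ± 2.15 in BDE209 and 6.67 ± 1.25 in DMSO libraries for TFDP2 (SD, n = 3 each). The MuvB core joins RBL1 or RBL2 with E2F4 in the DREAM complex. Of 8 genes of this core and its partners, RBL2 and FOXM1 among them, 3 were higher and 1 lower in all pairs. FOXM1, the factor that activates G2/M genes with MuvB, was that lower one, at 82.5 ± 4.62 FPKM in BDE209 and 96.2 ± 12.0 in DMSO libraries (difference -0.21). Among the kinases of pocket proteins, the cyclin D1 gene CCND1 averaged 229 ± 39.1 FPKM in BDE209 and 249 ± 61.6 in DMSO libraries, while CCND2 read at most 0.05. Of 7 listed CDK inhibitor genes 5 were found by symbol. CDKN2A and CDKN2B were not, so their levels are not known here. CDKN2C, an inhibitor of the cyclin D kinases, averaged 71.4 ± 12.0 FPKM in BDE209 and 76.8 ± 2.05 in DMSO libraries, CDKN1C (p57) 2.12 ± 0.615 in BDE209 and 1.65 ± 0.0603 in DMSO libraries, and CDKN1A (p21) 8.66 ± 1.23 in BDE209 and 7.71 ± 0.473 in DMSO libraries. Both CCND1 and CDKN2C were lower in BDE209 in pairs 1 and 3 and higher in pair 2, and their effect in number 2 exceeded that in numbers 1 and 3 by 0.23 for CCND1 (adjusted p in limma 0.0462) and by 0.33 for CDKN2C (0.0202). As for E2F7, these calls rest on 1 library per group with number 2, and of 9 settings run CCND1 was called in 3 and CDKN2C in 5. In the MuvB list LIN37 was called in the same direction (by 0.36) and MYBL2 in the other (-0.33). Calls of LIN37 and MYBL2 over the 9 settings were not counted. Over all genes 10.3% were called, 5.27% in the direction of CCND1 and 5.0% in the other. Of 10 RB corepressor genes 2 were higher and 1 lower in all pairs, the lower one being the histone methyltransferase gene SUV39H1, at 6.32 ± 0.613 FPKM in BDE209 and 7.19 ± 0.283 in DMSO libraries.

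The targets downstream were abundant. Of 49 tested G1/S and replication targets, 38 averaged above the median gene, up to 247 FPKM for the replication clamp gene PCNA, and 8 were higher and 10 lower in all pairs, with a median difference of -0.028 against 0.01 over all genes tested. Leaving out 1 library turned the sign of that median (0.023 without BDE209 replicate 3 and 0.021 without DMSO replicate 2) or moved it to -0.069 (without BDE209 replicate 2). TYMS, the thymidylate synthase gene, lay wholly higher at 138 ± 2.39 FPKM in BDE209 and 121 ± 9.97 in DMSO libraries, and CDC25A, a phosphatase gene for S phase entry, wholly lower at 4.72 ± 0.176 in BDE209 and 5.44 ± 0.393 in DMSO libraries. All 13 G2/M targets averaged above the median gene, 0 were higher and 7 lower in all pairs, and the median difference was -0.17, with pair medians of -0.238, -0.011 and -0.249 for numbers 1, 2 and 3. All 13 were lower in pairs 1 and 3, and 7 were lower and 6 higher in pair 2. Whether the list differed between pairs was not tested. MKI67, the Ki-67 proliferation marker gene, read 42.13, 30.98 and 39.84 FPKM in BDE209 and 47.93, 36.73 and 50.19 FPKM in DMSO replicates 1, 2 and 3. PLK1, a mitotic kinase gene, lay wholly lower, at 98.2 ± 3.64 FPKM in BDE209 and 116 ± 4.82 in DMSO libraries. It was named after its values were seen.

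**Figure D4:**
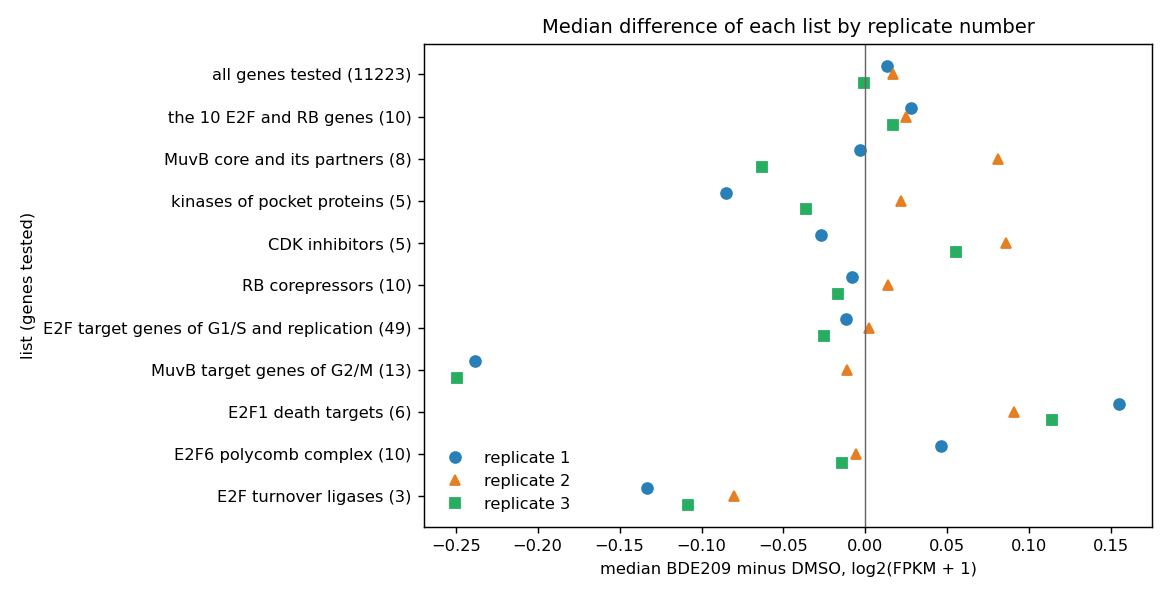
Median difference of BDE209 minus DMSO within each replicate number, in log2(FPKM + 1), for the 10 genes, the lists of partners and targets and all genes tested. The G2/M list lies at -0.238 and -0.249 in pairs 1 and 3 and at -0.011 in pair 2, while the G1/S list and all genes tested stay near 0.

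Over replicates 1 and 3 alone, 3 of these targets were called lower in limma. CCNA2, the cyclin A2 gene, read 54.15, 86.84 and 50.69 FPKM in BDE209 and 69.39, 82.97 and 68.26 FPKM in DMSO replicates 1, 2 and 3 (difference -0.39, adjusted p 0.0263). CDC20, an activator of the anaphase-promoting complex, read 222.13, 310.6 and 219.49 FPKM in BDE209 and 279.77, 337.8 and 276.91 FPKM in DMSO replicates 1, 2 and 3 (difference -0.33, adjusted p 0.036). CCNB2, the cyclin B2 gene, had a difference of -0.39 (adjusted p 0.0432). CCNA2 and CCNB2 were lower in BDE209 in pairs 1 and 3 and higher in pair 2, and for both the effect in number 2 differed from that in numbers 1 and 3, by 0.45 (adjusted p 0.00457) for CCNA2 and 0.5 (0.0158) for CCNB2. CCNB1, the cyclin B1 gene, was also called as differing in number 2, by 0.31 in the same direction. These calls too rest on 1 library per group, and 10.3% of all genes were called, 5.27% in that direction. With no filter all of them were lost (adjusted p 0.318 for CCNA2 and 0.335 for CCNB2). Of the 9 settings CCNA2 was called in 7 and CCNB2 in 6, and calls of CCNB1 were not counted over them. Thus 1 of the 49 G1/S targets and 2 of the 13 G2/M targets were called lower, where 2.28% of all genes were.

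The remaining lists each touch 1 factor. Of 6 tested death targets of E2F1, 4 were higher and 0 lower in all pairs, with a median difference of 0.113 against 0.01 over all genes tested. BCL2L11, a BH3-only death gene, averaged 1.39 ± 0.115 FPKM in BDE209 and 1.09 ± 0.0493 in DMSO libraries, and lay wholly higher. These levels are close to the filter of 1 FPKM. TP73, another E2F1 target, read at most 0.04. Of 10 genes of the E2F6 polycomb complex 1 was higher and 2 lower in all pairs, with MAX, the E-box factor subunit, at 23.1 ± 1.14 FPKM in BDE209 and 20.8 ± 0.572 in DMSO libraries, and WDR5 at 19.4 ± 1.05 in BDE209 and 22.2 ± 0.488 in DMSO libraries. The germline genes that E2F6 silences in mouse stayed low, STAG3 at 0.26 to 0.49 FPKM and SMC1B at 0.07 to 0.17. Of 5 multiciliation genes that E2F4 and E2F5 drive, only CCNO passed the filter, at 1.17 ± 0.63 FPKM in BDE209 and 1.0 ± 0.406 in DMSO libraries. Of the 3 ligase genes that mark E2F proteins for degradation 2 were lower in all pairs, with CCNF at 13.1 ± 2.45 FPKM in BDE209 and 14.8 ± 3.53 in DMSO libraries, and FZR1 at 26.7 ± 6.32 in BDE209 and 29.1 ± 6.38 in DMSO libraries.

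The tested genes whose profile over the 6 libraries came closest to that of E2F1, by root mean square difference of centred log2(FPKM + 1), were ZSWIM7 (0.0472), HRAS (0.056) and REX1BD (0.0565), where the median gene tested was at 0.326. For RB1 they were GPR107 (0.0202), SLC9A7 (0.0304) and CUL9 (0.0343), with a median gene at 0.276. These profiles share the split of replicate 2 from the other libraries.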

How the data were processed

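The deposited files hold FPKM per gene and library to 2 decimals with Ensembl identifiers, per the file headers. Bowtie 0.12.2, RSEM and Bowtie2 are named per the submitters' processing notes, as are the mouse builds mm8 and mm10. A human build and strand use are not given in those sources. Groups and replicate numbers came from sample titles. Of 16614 rows per file, the 40 rows of 20 repeated identifiers were left out; 16535 of 16574 genes matched a symbol. FPKM are not counts, so limma 3.58.1 (R 4.3.3; trend and robust) was fitted to log2(FPKM + 1), which understates changes of low genes, over 11223 genes with at least 1 FPKM in 3 or more libraries, with treatment alone and Benjamini-Hochberg adjustment over all genes tested. It was tested on simulated data, but the block fit over replicates 1 and 3 alone was not. Further fits added the replicate number as a block, used replicates 1 and 3 alone, or tested whether the effect differed in number 2. The block fit was run because same-numbered libraries were alike. Their deviations from their group means correlated at 0.738, 0.875 and 0.824, and each library correlated best with its own number. Numbers 1 and 3 correlated with each other at 0.646 and 0.644, and number 2 with either at -0.822 to -0.755. These values thus largely follow the split of number 2 and tell number 1 from number 3 only narrowly. What a number shares is not stated.

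Genes, lists and promoter words were chosen with earlier results of these data known, and no list was tested as a set. Named list genes are those with the 2 most positive and 2 most negative mean pair differences per list, and MKI67. Not every one is printed. PLK1, PCNA, CCNB1, CCNB2, LIN37, MYBL2, LUM, DCN, FN1, VIM and genes given only by a range were named after their values were seen. Transcript lengths and overlaps came from GENCODE v29 (GRCh38), not stated to be the authors' annotation. Alternatives were other pseudocounts, filters, scalings, limma without trend or robust options, and leaving out each library.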

Additional observations from a re-analysis of the deposited data

Results flagged for a closer look

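E2F7 is listed because its BDE209 effect differed between replicate numbers: the difference in number 2 exceeded that in numbers 1 and 3 by 0.43 on the log2(FPKM + 1) scale (limma, adjusted p = 0.0269). The pair differences were -0.32, 0.02 and -0.51 for numbers 1, 2 and 3. Number 2 holds 1 library per group, so the gene's own spread in that test comes from numbers 1 and 3 alone. The p-value therefore rests mostly on the spread that limma shares over genes. E2F7 was also lower in both number 2 libraries than in the other 4, with a shift of -0.82.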

How the results depend on the processing

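The replicate block, with pairing by number, left 0 genes and 0 of the 10 called over 6 libraries. Without both number 2 libraries 741 genes were called (726 as TPM); leaving out 1 library at a time gave 0 to 1, the 1 without BDE209 replicate 2. None of the 10 was called in any of these. For replicates 1 and 3, the 741 became 403 with no filter, 3184 with the block, 2700 with the block and TPM, and 266 to 458 with 1 library left out; the 0 of the 10 became 3 with the block (E2F4, E2F7 and E2F8; as many as TPM) and 0 to 1 with 1 library left out (E2F7, without DMSO replicate 1). For the number 2 difference, 1153 genes became 0 with no filter (2371 at an unadjusted p under 0.05), 711 as TPM, 640 after quantile scaling and 153 without trend and robust options. The 1 of the 10, E2F7, became 0 under each of these 4 (adjusted p 0.335, 0.089, 0.0745 and 0.157). Leaving out libraries there was not possible, since no residual degrees of freedom remain. Some near-zero differences changed sign. E2F1 was -0.0003 with equal medians, -0.01 without number 2 and -0.14 to 0.17 with 1 library left out. E2F2 was 0.14 without number 2 (0.18 as TPM; -0.18 to 0.17 with 1 left out). E2F6 was -0.0067 with equal medians and -0.03 after quantile scaling (-0.16 to 0.18). E2F3 (-0.02 to 0.14) and RB1 (-0.04 to 0.32) did so only with 1 left out. E2F4 (-0.16 to -0.09), E2F5 (0.06 to 0.11), E2F7 (-0.61 to -0.03), E2F8 (-0.31 to -0.22) and RBL1 (0.05 to 0.15) kept their sign in every setting run. A minimum of 5 FPKM drops E2F2, E2F5 and E2F8. With 1 library left out the G2/M list median was -0.37 to -0.059 and the G1/S median -0.069 to 0.023. Fragment steps lie far below the levels of the 10 genes, but genes read at under 0.1 FPKM, such as CCND2 and TP73, lie within a few fragments of 0.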
